A study of Mus musculus with 48 samples.

Results

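The perineuronal net genes described here are the 4 lecticans Acan, Bcan, Ncan and Vcan, the link proteins Hapln1 and Hapln4, and the tenascins Tnr and Tnc. They were taken by name, 8 of the 37620 genes in the authors' count table, with no threshold on a measured value. The study profiled RNA of mouse hippocampal neurons that were sorted by hand for fluorescence from microdissected slices, in 16 populations with 3 libraries each, and its title concerns differences among CA1 pyramidal neurons across space. PV interneurons and SST interneurons (the parvalbumin and somatostatin classes, both of CA1), granule cells from the dorsal and the ventral dentate gyrus (DG), and dorsal and ventral CA3 pyramidal cells stood beside 10 populations of CA1 pyramidal cells. Those 10 were the proximal, distal, superficial, deep, dorsal, intermediate and ventral cells, the dorsal cells that project to the postsubiculum, and the ventral cells that project to the amygdala or to the nucleus accumbens. No treatment or mutation is given for any group, and mouse line, age and the means of labelling are not given in the sources used here.

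A perineuronal net is a dense matrix around the soma and proximal dendrites of certain neurons. Hyaluronan chains made at the cell surface carry lecticans, which are chondroitin sulfate proteoglycans. Link proteins fasten each lectican to hyaluronan, and tenascin-R joins lecticans to one another through their other end. In the hippocampus nets are best known around parvalbumin interneurons and around pyramidal cells of CA2.

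The promoters of 3 lecticans are shown because these genes were called in different directions when the same interneurons were set against dorsal CA1 cells (Acan higher, Ncan lower, Bcan lower in SST interneurons). Each sequence holds the 250 bases before the RefSeq start of the gene, on the gene's strand, in build GRCm38.p6. Capitals mark matches on either strand to the TATA box (searched as TATAAA), the CAAT box (searched as CCAAT), the core of an Sp1 site (searched as GGGCGG) and the E-box (searched as CACGTG), which was in none of these 3.
Acan, chr7:79052976-79053225, plus strand: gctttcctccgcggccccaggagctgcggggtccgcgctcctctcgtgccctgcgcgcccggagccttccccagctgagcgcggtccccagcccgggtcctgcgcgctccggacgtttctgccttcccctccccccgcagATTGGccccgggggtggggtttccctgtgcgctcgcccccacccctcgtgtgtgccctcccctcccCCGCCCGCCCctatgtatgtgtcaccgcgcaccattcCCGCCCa
Bcan, chr3:88000357-88000606, minus strand: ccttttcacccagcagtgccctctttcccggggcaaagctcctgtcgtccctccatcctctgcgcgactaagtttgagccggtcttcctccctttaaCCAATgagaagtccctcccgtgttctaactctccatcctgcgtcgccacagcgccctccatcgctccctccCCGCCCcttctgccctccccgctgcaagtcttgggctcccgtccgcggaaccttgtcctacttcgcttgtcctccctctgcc
Ncan, chr8:70120845-70121094, minus strand: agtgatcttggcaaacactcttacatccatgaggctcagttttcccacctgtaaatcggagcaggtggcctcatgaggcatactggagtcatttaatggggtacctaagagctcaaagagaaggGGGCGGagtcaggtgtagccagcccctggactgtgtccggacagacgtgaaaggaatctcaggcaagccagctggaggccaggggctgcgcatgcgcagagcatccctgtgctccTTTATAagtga
The Acan promoter was 74.4% G and C with 26 CpG dinucleotides, the Bcan promoter 62.0% with 16, and the Ncan promoter 54.4% with 6, against medians of 52.4% and 6 over 32851 RefSeq promoters. The Ncan window held 1 TATAAA match close to the start, a motif found in 12.4% of those promoters. GGGCGG was matched 3 times in Acan, with an overlap of 2 matches, and once each in Bcan and Ncan, and 32.7% of all promoters hold it. CCAAT was matched once each in Acan and Bcan and in 33.8% of all promoters, and CACGTG was in 6.02% of them. RefSeq promoters matched 7 of the 8 genes, all but Hapln4. These matches describe letters only.

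Gene reads per library ran from about 5116570 to about 31984900. They were about 22115400 to 30077900 in dorsal CA1, 6695600 to 10393200 in intermediate CA1 and 5116570 to 8354460 in ventral CA1. Dorsal DG had about 6778470 to 7851920 and ventral DG about 14761800 to 16469400. The part of depth in the long-axis differences was not tested. The 3 libraries of a population are described as biological replicates in the series. PV libraries held Pvalb at 304 to 368 CPM (reads scaled to library size, as TMM-scaled CPM) and Sst at 239.6 to 920.1 CPM, and SST libraries held Pvalb at 1.57 to 54.5 CPM and Sst at 3589.6 to 6683 CPM, so each class carried its own marker above the other class and PV libraries also carried Sst. Granule-cell markers (Prox1, Dsp and C1ql2) summed to 1395 to 2000 CPM in DG libraries, and to at most 25.8 CPM in every other library. Gad1 and Gad2, the genes of GABA synthesis, summed to 141 to 689 CPM in deep CA1 cells, against 0 to 1.41 CPM in dorsal CA1 cells. They also reached 90.0 CPM in 1 proximal, 138 CPM in 1 superficial and 62.0 CPM in 1 postsubiculum-projecting library.

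Across all 16 populations, 7 of the 8 genes differed in edgeR's quasi-likelihood test at an adjusted p under 0.05, the threshold for a call throughout, and 65.3% of all genes tested did so. Vcan was the exception, with an adjusted p of 0.0782. DESeq2 also called 7 of 8, with Vcan in place of Tnc. In pooled cells, fewer cells that express a gene and less RNA per cell cannot be told apart, and this holds for each level below.

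**Figure D1:**
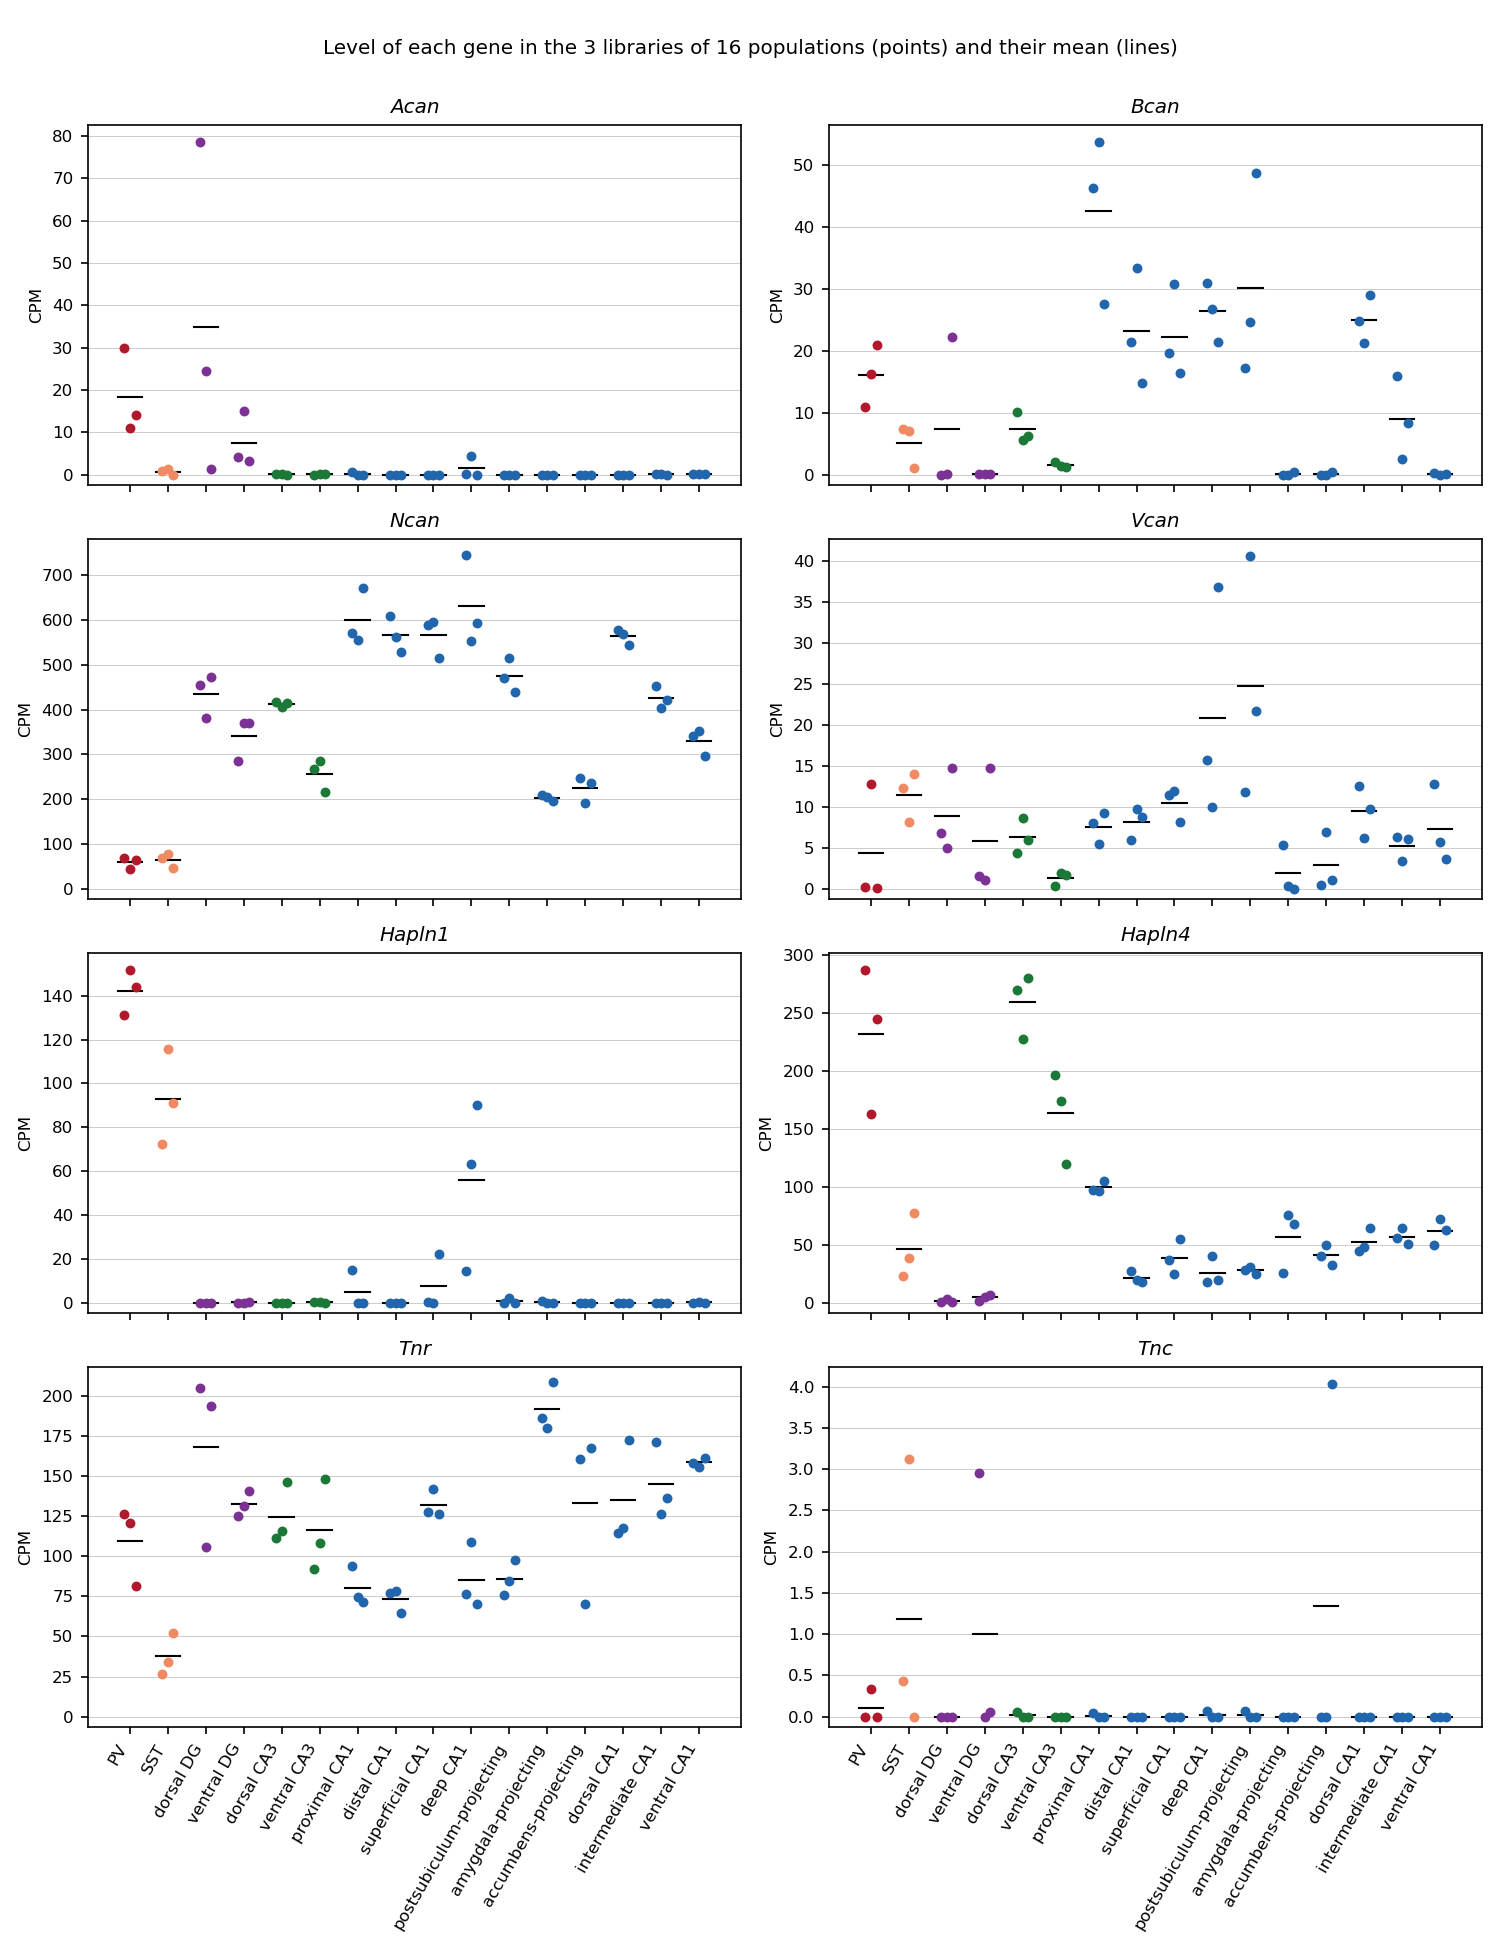
Level in CPM (vertical axis, linear, one scale per gene) of each of the 8 genes in the 3 libraries (points) of each of 16 populations (horizontal axis), with the mean as a line. Hapln1 stands high in PV and SST interneurons and deep CA1 cells, Hapln4 in CA3 cells, PV interneurons and proximal CA1 cells, Ncan is lowest in both interneuron classes, and Acan is above 1 CPM in all DG and PV libraries.

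Compared per length, with the authors' FPKM (fragments scaled by transcript length and library depth), Ncan was the leading lectican in every population. It made up 52.6% ± 6.0 of the summed lectican FPKM in PV interneurons and 76.2% ± 3.1 in SST interneurons (SD, n = 3), while its mean share lay between 88.0% and 98.9% in the 14 excitatory populations. In PV interneurons Bcan held 27.9% ± 9.6 and Acan 15.8% ± 7.9 of lectican FPKM. In dorsal CA1 cells Bcan held 7.19% ± 0.92 and Acan was at 0. The sum of the 8 genes ran from 58.0 FPKM in SST interneurons to 176 FPKM in dorsal CA3 cells, and the makeup differed as well. In PV interneurons Hapln4 gave 49.6% ± 7.6 of the sum, Hapln1 22.3% ± 4.7 and Ncan 6.36% ± 0.70, while in dorsal CA1 cells Ncan gave 62.7% ± 5.4 and Hapln4 11.6% ± 1.7 (SD, n = 3).

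**Figure D2:**
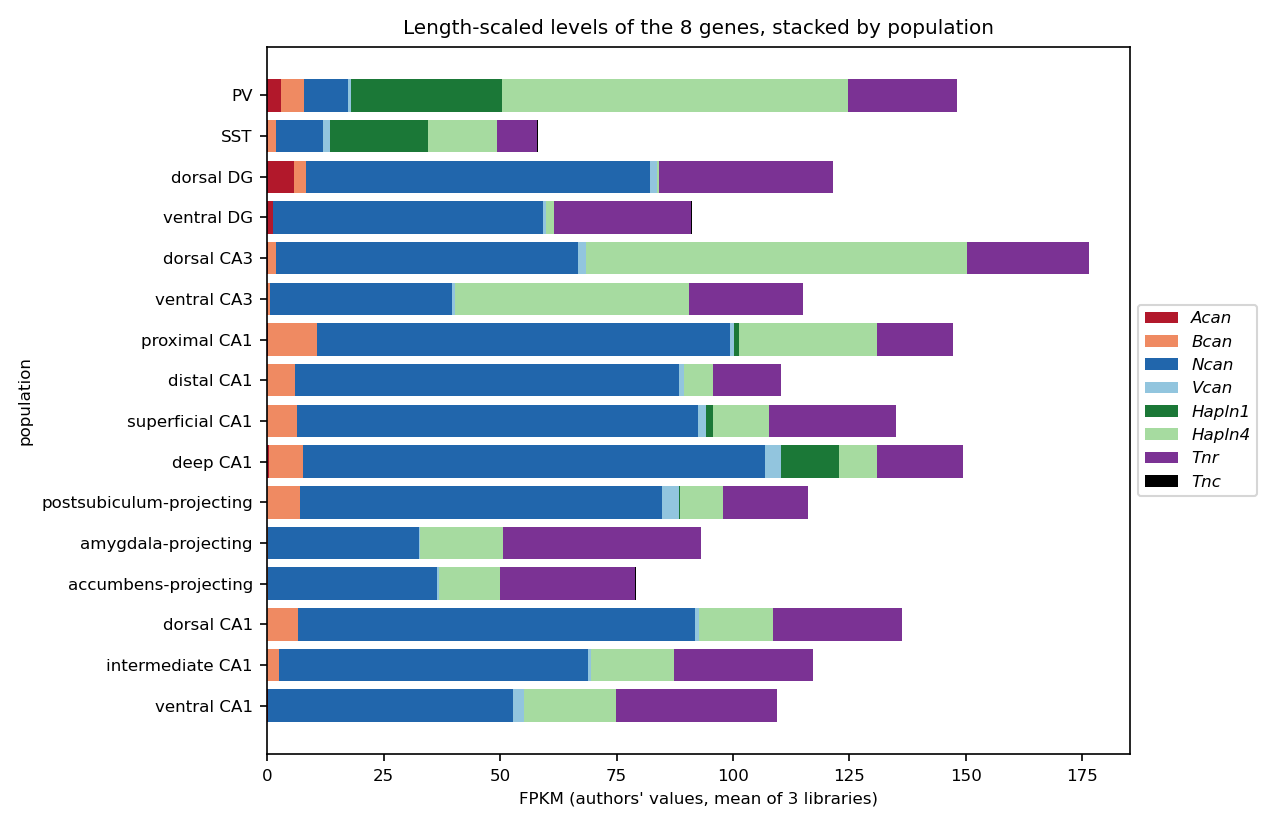
Authors' FPKM of the 8 genes, mean of 3 libraries, stacked (horizontal axis) for each of 16 populations (vertical axis). Ncan is the widest segment in the DG and in 9 of 10 CA1 populations (Tnr in amygdala-projecting cells), Hapln4 in PV interneurons and CA3 cells, Hapln1 in SST interneurons, and the SST interneuron bar is the shortest at 58.0 FPKM.

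Ncan, which encodes neurocan, the lectican of the developing and adult brain that both neurons and astrocytes make, was high in excitatory cells and low in interneurons. It measured 68.4, 44.5 and 64.6 CPM in PV interneurons and 69.0, 78.6 and 45.7 CPM in SST interneurons, against 579, 570.15 and 544 CPM in dorsal CA1 cells. The interneuron libraries were all far below the dorsal CA1 libraries and overlapped each other. The fold change was 9.37-fold lower in PV interneurons (log2 -3.23, SE 0.25, edgeR adjusted p = 1.15e-06) and 8.64-fold lower in SST interneurons (log2 -3.11, SE 0.25, adjusted p = 1.77e-06), both against the same dorsal CA1 libraries. Between the interneuron classes the log2 difference was -0.12 (SE 0.23, adjusted p = 0.835).

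Along the long axis of CA1, Ncan had 579, 570.15 and 544 CPM in dorsal cells, 453, 404 and 423 CPM in intermediate cells and 341, 352 and 296 CPM in ventral cells. The 3 positions did not overlap, and each step ran downward from dorsal to ventral. The level in dorsal cells was 1.66-fold that in ventral cells (log2 0.73, SE 0.099, adjusted p = 2.69e-05), and this call held in each of the 9 fits that left out 1 library. The single steps were smaller: 0.38 for dorsal over intermediate (adjusted p = 0.0306) and 0.35 for intermediate over ventral (adjusted p = 0.0427). Leaving out any dorsal library, or intermediate library 2 or 3, ended the first of these calls (adjusted p 0.0706 to 0.147). The second was lost without any library except intermediate library 2 (adjusted p 0.0501 to 0.156). Marker genes of other cells also differed along this axis. Gad1 and Gad2 summed to 0 to 1.41 CPM in dorsal libraries and 13.4 to 17.8 CPM in ventral ones, and SST-interneuron markers (Sst, Reln and Npy) to 0.0455 to 0.27 CPM in dorsal libraries, with Sst and Npy at 0, and 26.1 to 27.95 CPM in ventral ones. Astrocyte markers (8 genes) summed to 1.23 to 1.36 CPM in dorsal libraries, with 5 at 0, and 4.39 to 11.6 CPM in ventral ones, with Gfap, Aldh1l1, Gja1 and Gjb6 at 0. Oligodendrocyte markers (9 genes) summed to 14.96 to 35.4 CPM in dorsal libraries, with Opalin at 0, and 49.1 to 69.6 CPM in ventral ones, with Mag, Opalin and Cldn11 at 0. Their part in the long-axis differences of Ncan, and of Bcan below, was not tested.

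The same direction was measured in CA3, with 417, 406 and 416 CPM in dorsal cells and 267, 284 and 215 CPM in ventral cells. No dorsal library overlapped a ventral one, and the difference of 0.71 on the log2 scale (SE 0.13) was called at an adjusted p of 0.00201. In the DG Ncan had 454, 381 and 472 CPM in dorsal cells and 285, 371 and 370.4 CPM in ventral cells. The log2 difference of 0.38 (SE 0.13) missed the threshold at an adjusted p of 0.0505. It passed without dorsal DG library 2 (0.0224) or ventral CA3 library 3 (0.044), 2 of 18 such fits. In the others the adjusted p was 0.0615 to 0.239. The long-axis difference of CA1 minus that of CA3 was 0.041 for Ncan (SE 0.19, adjusted p = 0.991), and minus that of the DG it was 0.37 (SE 0.19, adjusted p = 0.24). Averaged over dorsal and ventral cells, Ncan was lower in CA3 than in CA1 by 0.41 on the log2 scale (SE 0.095, adjusted p = 0.0044) and higher in the DG than in CA3 by 0.25 (SE 0.095, adjusted p = 0.0431). The second of these calls held in 3 of 18 fits without 1 library, those without ventral CA3 library 2, dorsal DG library 2 or ventral DG library 1; in the other 15 the adjusted p lay between 0.0602 and 0.137.

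Among ventral cells sorted by target, Ncan measured 209, 206 and 195 CPM in amygdala-projecting cells and 247, 192 and 236 CPM in accumbens-projecting cells, against 341, 352 and 296 CPM in ventral CA1 cells. Both projection groups lay below all ventral libraries without overlap, but the log2 differences of -0.69 (SE 0.19, adjusted p = 0.0694) and -0.54 (SE 0.19, adjusted p = 0.19) did not pass in this fit. The first was called when accumbens-projecting library 2 or 3 was left out (adjusted p = 0.04 and 0.0495). Those were 2 of 9 fits without 1 library, and in the others the adjusted p was 0.0873 to 0.361. Both comparisons share the ventral CA1 libraries. Endothelial markers (Pecam1, Kdr, Flt1 and Tek, with Cldn5 at 0 in all 3 groups) summed to 52.9 to 99.996 CPM in amygdala-projecting libraries and 12.2 to 56.2 CPM in accumbens-projecting libraries, against 0 to 4.74 CPM in ventral ones, and their part in the lower Ncan was not tested. In order of mean, Ncan ran through deep, proximal, distal, superficial and dorsal CA1 cells (631 to 564 CPM), which overlapped, then postsubiculum-projecting cells, dorsal DG, intermediate CA1 and dorsal CA3 (475 to 413 CPM), then ventral DG and ventral CA1 (342 and 329.5 CPM), then ventral CA3 and the 2 ventral projection groups (256 to 203 CPM), with the interneurons last. Neighbours within each of these 5 tiers overlapped and neighbours across tiers did not. The tiers themselves were apart in library range except the first pair, since a superficial library (515 CPM) lay just under a postsubiculum-projecting one (516 CPM).

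Bcan, which encodes brevican, the lectican enriched around adult synapses and nets and also made by glia, was concentrated at the dorsal end of CA1. It had 24.8, 21.2 and 28.9 CPM in dorsal cells, 15.9, 2.52 and 8.41 CPM in intermediate cells and 0.253, 0 and 0.116 CPM in ventral cells. Only 3 reads in all came from ventral CA1. The ratio of dorsal to ventral cells over these reads was 180 with a 95% exact binomial interval of 61.6 to 876 that covers counting error only, and edgeR gave an adjusted p of 1.74e-06. Intermediate cells were higher than ventral cells by a ratio of 58.6 (interval 19.8 to 287, adjusted p = 0.000133). Dorsal over intermediate cells reached log2 1.46 (SE 0.51, adjusted p = 0.119). That difference was called in 1 of 9 fits without 1 library, the one without intermediate library 1 (adjusted p = 0.026). In the others the adjusted p was 0.0867 to 0.334.

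Ventral projection cells resembled their ventral neighbours in this gene, with 0, 0 and 0.362 CPM in amygdala-projecting cells and 0, 0 and 0.367 CPM in accumbens-projecting cells. Postsubiculum-projecting cells had 17.1, 24.7 and 48.6 CPM, which overlapped dorsal CA1 cells. The highest mean was that of proximal cells, at 46.3, 53.7 and 27.5 CPM, against 21.4, 33.3 and 14.7 CPM in distal cells, and this log2 difference of 0.90 (SE 0.37) had an adjusted p of 0.297. Oligodendrocyte markers (9 genes) summed to 32.3 to 270.0 CPM in proximal libraries, with all 9 detected, and 24.4 to 61.2 CPM in distal ones, with Mog, Mag, Opalin and Cldn11 at 0, and their part was not tested.

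In CA3, Bcan measured 10.1, 5.55 and 6.28 CPM in dorsal cells and 2.09, 1.40 and 1.27 CPM in ventral cells. These did not overlap but the difference did not pass in the fit (log2 2.21, SE 1.11, adjusted p = 0.376). It was called when dorsal DG library 3 was left out of the fit that spans the regions (adjusted p = 0.0161), 1 of 18 such fits. In the others the adjusted p was 0.135 to 0.671. In the DG Bcan had 0, 0.136 and 22.2 CPM in dorsal cells against 0.167, 0.131 and 0.114 CPM in ventral cells. The call of Bcan as higher in dorsal DG (log2 5.71, SE 1.39, adjusted p = 0.00659) rested on dorsal DG library 3 alone, and without it the log2 difference was -0.97 with an adjusted p of 0.625. The same library set the regional contrasts: without it Bcan was lower in DG than in CA1 by 4.20 (adjusted p = 0.000197) and lower than in CA3 by 5.06 (adjusted p = 8.25e-07) on the log2 scale, against -0.85 (adjusted p = 0.586) and -1.71 (adjusted p = 0.117) with it. CA1 pyramidal markers (Fibcd1, Mpped1 and Wfs1) summed to 17.2 to 96.5 CPM in dorsal DG libraries and 43.0 to 51.1 CPM in ventral ones, and their part was not tested. Bcan measured 7.30, 6.97 and 1.03 CPM in SST interneurons and was lower there than in dorsal CA1 cells (log2 -2.28, SE 0.61, adjusted p = 0.0148; 0.0505 without dorsal CA1 library 3). PV interneurons had 10.9, 16.3 and 20.9 CPM, between the other 2 groups, and edgeR called them against neither. DESeq2 called Bcan higher in PV than in SST interneurons (log2 1.65, adjusted p = 0.0484).

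Acan, which encodes aggrecan, the lectican most tied to mature nets, was found mainly in granule cells and PV interneurons. It had 30.0, 10.9 and 14.01 CPM in PV interneurons and 0.769, 1.42 and 0.0492 CPM in SST interneurons, against 0 reads in all 3 dorsal CA1 libraries. The PV and SST libraries did not overlap, with log2 4.62 (SE 1.05, adjusted p = 0.028); leaving out PV library 1 or 3 or SST library 1 raised the adjusted p to between 0.0623 and 0.123, and without SST library 2 the log2 difference was 5.49 (adjusted p = 0.0326). Against a floor of 3 reads per library, Acan was at least 154-fold higher in PV interneurons than in dorsal CA1 cells (adjusted p = 0.000319) and at least 6.28-fold higher in SST interneurons (adjusted p = 0.00721).

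Granule cells had 78.7, 24.6 and 1.36 CPM in dorsal DG and 4.30, 14.98 and 3.25 CPM in ventral DG. The spread within dorsal DG covered a wide range, its library 3 being the lowest of all 6. Dorsal over ventral DG (log2 2.26, SE 1.007) had an adjusted p of 0.122. Without dorsal DG library 3 it was called at log2 2.82 (adjusted p = 0.0174), 1 of 18 such fits. In the others the adjusted p was 0.0916 to 0.63. All 6 DG libraries lay above all dorsal and ventral CA1 and CA3 libraries. Dorsal and ventral CA1 gave 3 reads in all, so the DG to CA1 ratio was 530.2 with an interval of 181 to 2575 (adjusted p = 3.77e-06). DG over CA3 was 97.9-fold (log2 6.61, SE 0.90, adjusted p = 1.1e-05), with log2 5.89 without dorsal DG library 1 and 7.32 without ventral CA3 library 3. Outside the DG and the interneurons Acan passed 1 CPM in 1 library only, deep CA1 library 2 at 4.40 CPM, which also held Gad1 and Gad2 at 431 CPM together. DG libraries held Gad1 and Gad2 at 41.9 to 107 CPM in sum. In DG over CA1, 3 of 4 GABAergic and 2 of 5 tested astrocyte markers were called higher and none lower. The same held for 2 of 9 tested oligodendrocyte, 1 of 2 microglial and 1 of 2 endothelial markers. Of 3 tested oligodendrocyte precursor and 3 SST-interneuron markers none was called. Of 2 tested PV-interneuron markers 1 was called higher and 1 lower. The part of other cells in the Acan of the DG was not tested.

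Vcan, which encodes versican, a lectican also made by oligodendrocyte precursors, was low and uneven. Means ran from 1.35 ± 0.86 CPM in ventral CA3 to 24.7 ± 14.7 CPM in postsubiculum-projecting cells (SD, n = 3), and every neighbour in that order overlapped the next. In postsubiculum-projecting cells it had 11.8, 40.7 and 21.7 CPM against 12.495, 6.20 and 9.69 CPM in dorsal CA1 cells (log2 1.41, SE 0.50, adjusted p = 0.0954). Of 6 fits without 1 library, 1 was called, that without postsubiculum-projecting library 1 (adjusted p = 0.0349). In the others the adjusted p was 0.124 to 0.322, and log2 fell as low as 0.838. Postsubiculum-projecting library 2, the highest, held Gad1 and Gad2 at 62.0 CPM in sum, against 0.325 and 0.622 CPM in libraries 1 and 3. The part of GABAergic RNA in this Vcan difference was not tested. In PV interneurons 1 library had 12.8 CPM and the others 0.159 and 0.117 CPM, and without that library, number 2, Vcan was called lower than in SST interneurons by 6.31 (adjusted p = 0.00191) and lower than in dorsal CA1 cells by 6.01 (adjusted p = 0.000369) on the log2 scale. With all libraries those differences were -1.41 (adjusted p = 0.585) and -1.11 (adjusted p = 0.545).

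Hapln1, the link protein also known as cartilage link protein 1, was a gene of the interneurons. It had 131, 152 and 144 CPM in PV interneurons and 72.2, 116 and 91.0 CPM in SST interneurons, and no read in any dorsal CA1 library. The classes did not overlap, but PV over SST at log2 0.62 (SE 0.24) had an adjusted p of 0.182. Against the floor it was at least 1198-fold higher in PV interneurons than in dorsal CA1 cells (adjusted p = 1.9e-08) and at least 782-fold higher in SST interneurons (adjusted p = 3.36e-08).

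Among the 30 CA1 pyramidal libraries, Hapln1 passed 1 CPM in 6. These were the deep libraries at 14.5, 63.3 and 90.3 CPM, superficial library 3 at 22.4 CPM, proximal library 1 at 14.8 CPM and postsubiculum-projecting library 2 at 2.03 CPM. Those 6 held Gad1 and Gad2, the GABA synthesis enzymes, at 62.0 to 689 CPM in sum, and the other 24 held them at 0 to 54.9 CPM. In 21 of those 24 Hapln1 had no read, and its highest level there was 0.688 CPM. The part of GABAergic RNA in the Hapln1 of these libraries was not tested. DG libraries held Gad1 and Gad2 at 41.9 to 107 CPM in sum and Hapln1 at no more than 0.343 CPM.

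**Figure D3:**
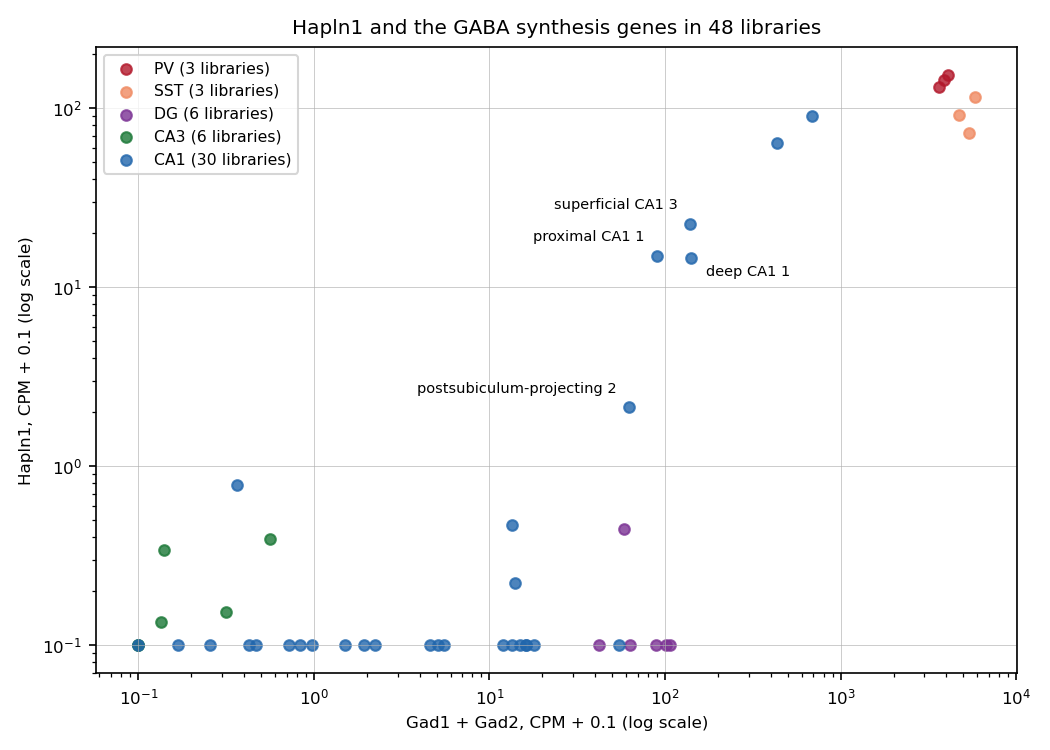
Hapln1 (vertical axis) against the sum of Gad1 and Gad2 (horizontal axis) in each of 48 libraries (points), both as CPM + 0.1 on log scales. The 6 CA1 libraries with Hapln1 above 1 CPM are those with the highest Gad sums among CA1 libraries, from 62.0 to 689 CPM, while DG libraries with Gad sums up to 107 CPM stay at or near 0.

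Superficial over deep cells gave log2 -2.94 for Hapln1 (SE 2.23, adjusted p = 0.675) with 0.123, 0 and 22.4 CPM in superficial cells against 14.5, 63.3 and 90.3 CPM in deep cells. The superficial library at 22.4 CPM alone overlapped the deep ones. Without it the log2 difference was -9.70 with an adjusted p of 0.00192, and the deep libraries held Gad1 and Gad2 at 141 CPM or more in sum. Per length, Hapln1 made up 31.2% ± 7.8 of the summed FPKM of Hapln1 and Hapln4 in PV interneurons, 60.8% ± 13.5 in SST interneurons and 55.6% ± 20.0 in deep CA1 cells (SD, n = 3), and at most 7.53% on average in the other 13 populations.

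Hapln4, the brain link protein known as Bral2, which is known from nets and inhibitory synapses, set CA3 cells, PV interneurons and proximal CA1 cells apart. It had 287, 163 and 245 CPM in PV interneurons and 23.1, 38.6 and 77.7 CPM in SST interneurons, against 44.5, 47.8 and 64.8 CPM in dorsal CA1 cells. PV libraries lay above all the others, while SST and dorsal CA1 libraries overlapped. PV over SST was 4.98-fold (log2 2.31, SE 0.40, adjusted p = 0.00425; log2 2.92 without SST library 3) and PV over dorsal CA1 4.50-fold (log2 2.17, SE 0.40, adjusted p = 0.00122), and SST over dorsal CA1 was -0.14 (SE 0.38, adjusted p = 0.824).

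By region, Hapln4 measured 269, 227 and 280.1 CPM in dorsal CA3 and 196, 174 and 119.8 CPM in ventral CA3, and 0.251, 2.99 and 0.409 CPM in dorsal DG and 1.62, 5.32 and 7.02 CPM in ventral DG. Dorsal and ventral CA1 cells lay between them at 44.5 to 72.4 CPM, with no overlap among the 3 regions. CA3 exceeded CA1 3.61-fold (log2 1.85, SE 0.30, adjusted p = 0.000116), DG was 24.0-fold below CA1 (log2 -4.58, SE 0.37, adjusted p = 3.59e-09) and 86.6-fold below CA3 (log2 -6.44, SE 0.39, adjusted p = 4.32e-11). Without dorsal DG library 2 the log2 differences of the DG were -5.52 from CA1 and -7.37 from CA3. Within the DG, Hapln4 was lower in dorsal than in ventral cells (log2 -1.91, SE 0.57, adjusted p = 0.0228), at levels under 8 CPM that overlapped. That call was lost without dorsal DG library 1 or 3 or ventral DG library 2 or 3 (adjusted p 0.0606 to 0.108), and without dorsal DG library 2 the log2 difference was -3.77. In CA3 over CA1, edgeR also called 5 of 9 tested oligodendrocyte markers, 2 of 3 oligodendrocyte precursor markers, 2 of 5 astrocyte markers and 2 of 2 PV-interneuron markers higher in CA3, and none of these lower. Oligodendrocyte markers summed to 25.1 to 214 CPM in dorsal CA3 and 26.5 to 181 CPM in ventral CA3, with all 9 detected in both, against 14.96 to 35.4 CPM in dorsal CA1 and 49.1 to 69.6 CPM in ventral CA1. PV-interneuron markers (Pvalb, Kcnc1 and Kcnc2) summed to 437 to 535 CPM in dorsal CA3 and 266 to 312 CPM in ventral CA3, against 107 to 129 CPM in CA1, with Pvalb itself at 0 in ventral CA3 and in both CA1 groups. The part of other cells in the Hapln4 and Ncan differences between regions was not tested.

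Within CA1, Hapln4 also split along the transverse axis. Proximal cells, those next to CA3, had 97.5, 96.7 and 104.8 CPM and distal cells, those next to the subiculum, had 27.0, 19.4 and 18.1 CPM. Every proximal library was at least 3 times any distal one, and the 4.71-fold difference (log2 2.23, SE 0.23, adjusted p = 0.00191) was called in each of 6 fits without 1 library. Proximal library 1, in the middle of the 3, held Gad1 and Gad2 at 90.0 CPM in sum and Pvalb at 81.3 CPM. Pvalb measured 0.0988 and 0.180 CPM in the other proximal libraries and 10.6, 15.1 and 12.9 CPM in distal ones. CA3 pyramidal markers (Iyd, Grik4 and Cdh24) summed to 3.85 to 7.37 CPM in proximal libraries, against 1.17 to 10.7 CPM in distal ones and 123 to 164 CPM in dorsal CA3. Oligodendrocyte markers (9 genes) summed to 32.3 to 270.0 CPM in proximal libraries and 24.4 to 61.2 CPM in distal ones. The part of other cells in the transverse difference of Hapln4 was not tested. Along the long axis of CA1 Hapln4 was not called, at log2 -0.28 for dorsal over ventral cells (SE 0.21, adjusted p = 0.454). Without 1 library this log2 difference ran from -0.46 to -0.14, so a modest difference is not excluded for Hapln4. In postsubiculum-projecting cells it had 28.4, 30.8 and 25.0 CPM, below all dorsal CA1 libraries, with log2 -0.87 (SE 0.26) and an adjusted p of 0.0509.

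Tnr, which encodes tenascin-R, the protein that cross-links lecticans, was present in every library between 26.7 and 209 CPM. It had 126, 121 and 81.2 CPM in PV interneurons and 26.7, 34.1 and 52.1 CPM in SST interneurons, against 114, 118 and 173 CPM in dorsal CA1 cells. SST libraries were below the libraries of both other groups. PV over SST was 2.90-fold (log2 1.54, SE 0.30, adjusted p = 0.00911), SST over dorsal CA1 was log2 -1.82 (SE 0.30, adjusted p = 0.000718), and PV over dorsal CA1 was -0.28 (SE 0.29, adjusted p = 0.522). PV libraries held less oligodendrocyte and microglial RNA than SST libraries. Oligodendrocyte markers summed to 15.9 to 47.99 CPM in PV libraries, with Mag and Opalin at 0, and to 57.3 to 959 CPM in SST libraries, with all 9 detected. Microglial markers summed to 0.313 to 6.93 CPM in PV libraries, with Tmem119 and Aif1 at 0, and to 31.3 to 69.1 CPM in SST libraries, with all 7 detected. Oligodendrocyte precursor markers summed to 0.199 to 3.25 CPM in PV libraries, with Cspg4, Sox10 and Gpr17 at 0, and to 1.48 to 34.2 CPM in SST libraries, with Cspg4 at 0. In dorsal CA1 libraries, oligodendrocyte markers summed to 14.96 to 35.4 CPM, with Opalin at 0, and microglial markers to 0.476 to 1.23 CPM, with Cx3cr1, Tmem119, C1qa and C1qb at 0. Against those libraries, 6 of 6 tested oligodendrocyte markers, 4 of 5 microglial markers and 3 of 6 astrocyte markers were called higher in SST interneurons. Astrocyte markers summed to 8.21 to 24.75 CPM in SST libraries, with all 8 detected, against 1.23 to 1.36 CPM in dorsal CA1 libraries. Their part in the differences between the interneuron classes, and in those of SST interneurons from dorsal CA1 cells, was not tested.

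In CA1, Tnr had 128, 142 and 126 CPM in superficial cells and 76.2, 109 and 70.4 CPM in deep cells, without overlap (log2 0.59, SE 0.19, adjusted p = 0.152). Leaving out deep library 2 brought the call (log2 0.83, adjusted p = 0.031). Of the 6 fits without 1 library that was the only 1 called, and in the others the adjusted p was 0.24 to 0.419. Gad1 and Gad2 summed to 141, 431 and 689 CPM in deep libraries and 13.8, 14.9 and 138 CPM in superficial ones. The part of GABAergic RNA in this Tnr difference was not tested. The highest mean was that of amygdala-projecting cells, with 186, 180.04 and 209 CPM, against 161, 70.1 and 168 CPM in accumbens-projecting cells and 158, 156 and 161 CPM in ventral CA1 cells. Neither difference from amygdala-projecting cells was called (adjusted p = 0.59 and 0.75). Postsubiculum-projecting cells had 76.0, 84.7 and 97.4 CPM, below all dorsal CA1 libraries (log2 -0.63, SE 0.19, adjusted p = 0.0626). In the order of means, SST interneurons stood apart at the low end and every other neighbouring pair overlapped.

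Tnc, which encodes tenascin-C, known mainly from glia and from development, was close to absent. It had no read in 38 of 48 libraries and passed 1 CPM in 3, accumbens-projecting library 3 at 4.04 CPM, SST library 2 at 3.12 CPM and ventral DG library 1 at 2.96 CPM. In the remaining libraries Tnc reached at most 0.439 CPM. Accumbens-projecting library 3 also held Gad1 and Gad2 at 54.9 CPM in sum and Sst at 516 CPM. Libraries 1 and 2 of that group held 0.872 and 0.734 CPM, and 5.75 and 0.367 CPM. The part of interneuron RNA in this Tnc level was not tested. Tnc was called across all populations (adjusted p = 0.00371), and it had too few reads for a test in any comparison of 2 groups.

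Counted over all 8 genes, the 2 comparisons of interneurons with dorsal CA1 cells gave the most calls between groups. PV over SST interneurons called 3 of 8, all higher (Hapln4, Tnr and Acan), where 6.15% of all genes tested were called, 2.62% higher and 3.53% lower. PV interneurons over dorsal CA1 cells called 4 (Hapln1, Hapln4 and Acan higher, Ncan lower) where 29.7% of genes were called, 16.3% higher and 13.4% lower. SST interneurons over dorsal CA1 cells called 5 (Hapln1 and Acan higher; Ncan, Bcan and Tnr lower) where 27.4% were called. Tnc had too few reads in all 3 of these, so 7 of the 8 were tested.

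Between regions, DG over CA1 called 2 of 8 (Acan higher, Hapln4 lower) where 33.1% of genes were called, 15.7% higher and 17.4% lower. DG over CA3 called 3 (Acan and Ncan higher, Hapln4 lower) where 36.5% were called, and CA3 over CA1 called 2 (Hapln4 higher, Ncan lower) where 13.5% were, 8.15% higher and 5.34% lower. In these regional fits, as in those of the long axis of CA3 and of the DG, 6 of the 8 were tested, all but Hapln1 and Tnc, while the percentages are shares of the genes tested. Along the long axis, with 5 of the 8 tested in CA1 (not Acan, Hapln1 or Tnc), the counts were 2 of 8 for dorsal over ventral CA1 (Ncan and Bcan, both higher; 15.1% of genes called, 7.17% higher and 7.95% lower), 1 for dorsal over intermediate CA1 (Ncan; 4.93%), 2 for intermediate over ventral CA1 (Ncan and Bcan; 5.03%), 1 for dorsal over ventral CA3 (Ncan; 4.97%) and 2 for dorsal over ventral DG (Bcan higher and Hapln4 lower; 19.4%). The tests of whether the long-axis difference of CA1 differed from that of CA3 or of the DG called 0 of 8 each with edgeR, where 3.52% and 9.71% of genes were called. At an unadjusted p under 0.05 they held 1 gene (Bcan) and 2 genes (Acan and Hapln4), and DESeq2 called 0 and 1 (Acan). Without dorsal DG library 3 they called 1 and 2, Bcan in both (log2 5.24, adjusted p = 0.00113, and 8.42, adjusted p = 0.000343) and Acan in the second (log2 -7.19, adjusted p = 0.0282).

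Within CA1, proximal over distal cells called 1 of 8 (Hapln4) where 1.06% of genes were called. Here and for the postsubiculum 5 of the 8 were tested (not Acan, Hapln1 or Tnc), in superficial over deep cells 6 (not Acan or Tnc), and in the 3 comparisons by target 4 (not Acan, Bcan, Hapln1 or Tnc). The edgeR fits called 0 of 8 in superficial over deep cells (2.48% of genes called; 1 gene, Tnr, at an unadjusted p under 0.05 and 0 by DESeq2), in amygdala-projecting over ventral cells (2.38%; 1 gene, Ncan, unadjusted, and the same by DESeq2), in accumbens-projecting over ventral cells (2.04%; 1 gene, Ncan, unadjusted, and 0 by DESeq2), and in amygdala- over accumbens-projecting cells (0.0231%; 0 unadjusted and 0 by DESeq2). Postsubiculum-projecting over dorsal cells also called 0 of 8 with edgeR, where 10.8% of genes were called; 4 genes (Hapln4, Tnr, Vcan and Ncan) had an unadjusted p under 0.05 and DESeq2 called 3 of them (Hapln4 and Tnr lower, Vcan higher).

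**Figure D4:**
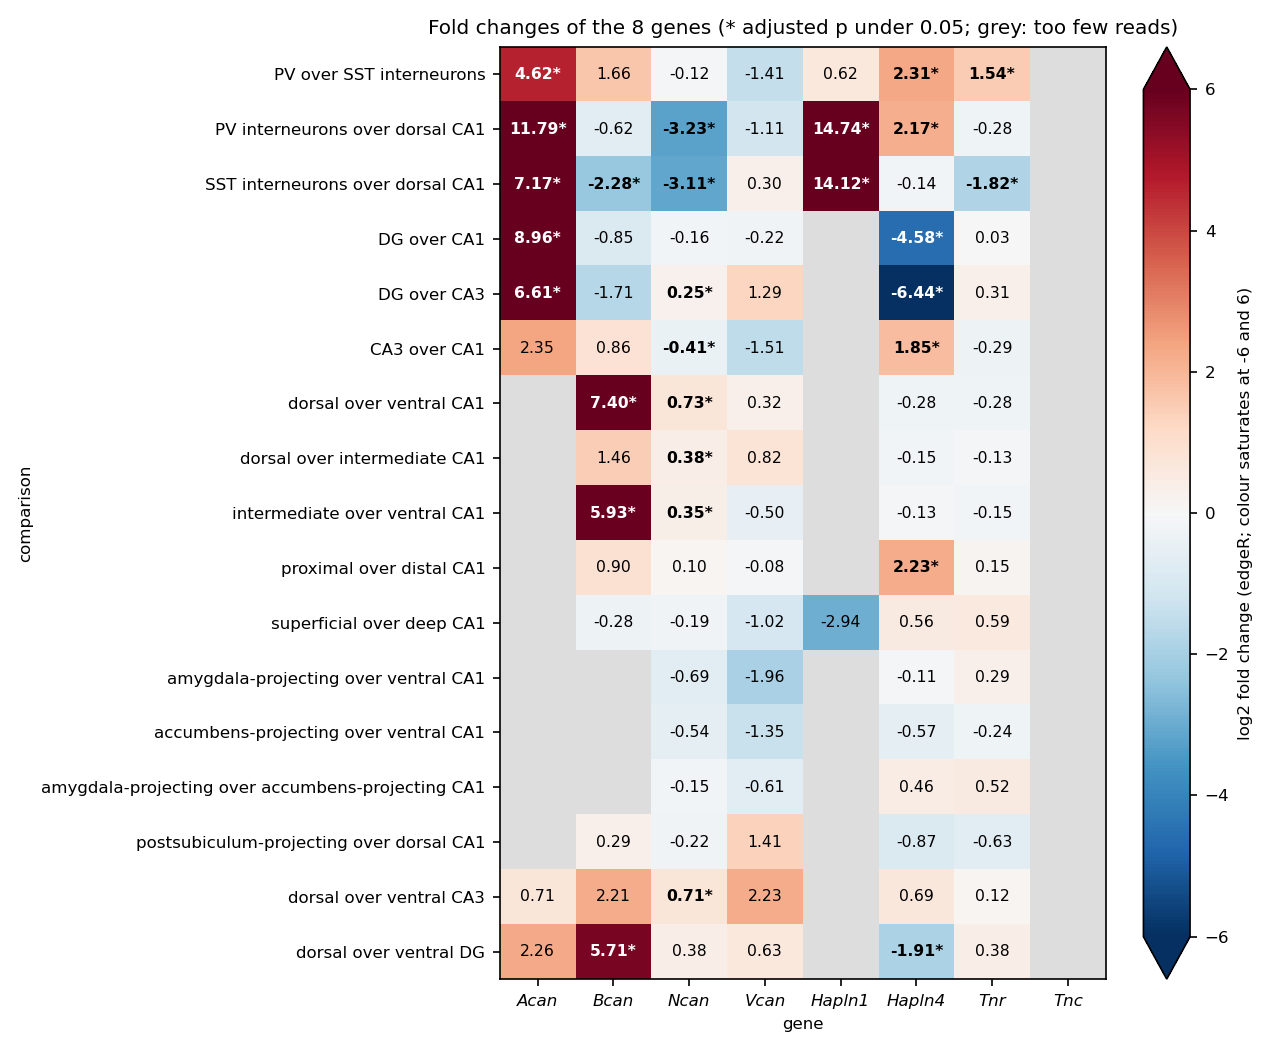
Log2 fold change (colour, and number in each cell) of the 8 genes (columns) in 17 comparisons (rows, first-named group over second); an asterisk marks an adjusted p under 0.05 and grey a gene with too few reads. Acan and Hapln1 are higher in both interneuron classes than in dorsal CA1 cells, where they had no read and the printed number is a fitted value and no bound, and Ncan is lower in both at -3.23 and -3.11.

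Other genes of net assembly were called in both directions, and all lists were fitted with the whole table. PV over SST interneurons called 6.15% of all genes tested, 2.62% higher and 3.53% lower. In PV over SST interneurons, the 18 tested of 21 genes of chondroitin sulfate synthesis held 4 lower calls and no higher one, with a median log2 of 0.063 against 0.0093 over all genes. Ust, the uronyl 2-sulfotransferase, averaged 1.68 CPM in PV and 10.3 CPM in SST interneurons (log2 -2.61, adjusted p = 0.00214), and Chst11, a chondroitin 4-sulfotransferase, 14.3 CPM in PV and 36.4 CPM in SST interneurons (log2 -1.35, adjusted p = 0.0269). Of 16 tested proteases, inhibitors and hyaluronidases 2 were higher and 2 lower (median -0.022). The inhibitor Timp2 averaged 213 CPM in PV and 815 CPM in SST interneurons (adjusted p = 0.00127), and Timp3 averaged 12.9 CPM in PV and 176 CPM in SST interneurons (adjusted p = 0.00172). Of 13 receptors for net components 4 were higher and 1 lower (median 0.073). Plxna4, a semaphorin co-receptor, averaged 436 CPM in PV and 112 CPM in SST interneurons (adjusted p = 0.000112), and the Nogo receptor relative Rtn4rl1 averaged 81.9 CPM in PV and 19.4 CPM in SST interneurons (adjusted p = 0.00067). Of 7 tested other proteoglycans and net-associated genes 2 were lower (median -1.28): Ptprz1, the phosphacan gene, at 0.695 CPM in PV and 44.0 CPM in SST interneurons (adjusted p = 0.000108), and Sema3a, a guidance protein held in nets, at 24.8 CPM in PV and 148 CPM in SST interneurons (adjusted p = 0.00924). Of other link proteins and hyaluronan synthases 2 were tested, Has3 with log2 0.70 (adjusted p = 0.503) and Has1 with log2 2.41 (adjusted p = 0.504).

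Against dorsal CA1 cells, PV interneurons called 29.7% of all genes tested, 16.3% higher and 13.4% lower. Of 18 genes of chondroitin sulfate synthesis and sulfation 2 were higher and 5 lower (median -0.43 against 0.13 over all genes). Ust averaged 1.68 CPM in PV and 106 CPM in dorsal CA1 cells (adjusted p = 1.3e-06). Chst11 averaged 14.3 CPM in PV and 145 CPM in dorsal CA1 cells (adjusted p = 1.39e-05). Has3, a hyaluronan synthase, was the 1 called of 2 tested in its list, at 3.04 CPM in PV and 21.8 CPM in dorsal CA1 cells (adjusted p = 0.00155). Of 16 proteases and related genes 4 were higher and none lower (median 1.34), with Timp2 at 213 CPM in PV and 21.5 CPM in dorsal CA1 cells (adjusted p = 4e-06) and Adamts15, a protease of lecticans, at 12.2 CPM in PV interneurons and no read in dorsal CA1 cells (adjusted p = 0.000513). Receptors gave 2 higher and 7 lower of 13 (median -0.77). Nrp1, the semaphorin receptor, averaged 16.8 CPM in PV and 102 CPM in dorsal CA1 cells (adjusted p = 0.00025), and Plxna1 72.8 CPM in PV and 217 CPM in dorsal CA1 cells (adjusted p = 0.000446). Of 7 other proteoglycans and net-associated genes 2 were higher and 3 lower (median -1.22), with Ptprz1 at 0.695 CPM in PV and 25.8 CPM in dorsal CA1 cells (adjusted p = 2.4e-05) and Nptx1, a pentraxin of excitatory synapses, at 12.95 CPM in PV and 364 CPM in dorsal CA1 cells (adjusted p = 4.32e-05).

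Dorsal over ventral CA1 cells called 15.1% of all genes tested, 7.17% higher and 7.95% lower. Along this long axis, Has3 followed the direction of Ncan and Bcan. It averaged 21.8 ± 2.6 CPM in dorsal cells and 2.29 ± 0.80 CPM in ventral cells (SD, n = 3; log2 3.22, adjusted p = 1.21e-05) and was the only tested gene of the 5 in its list. Of 17 genes of chondroitin sulfate synthesis and sulfation 2 were higher and 2 lower (median 0.11 against -0.0075 over all genes). Chst11 averaged 145 CPM in dorsal cells and 83.5 CPM in ventral cells (adjusted p = 0.00432). Ust averaged 106 CPM in dorsal cells and 67.4 CPM in ventral cells (adjusted p = 0.00885). Of 9 proteases and related genes 1 was higher and 3 lower (median -0.87). Timp2 averaged 21.5 CPM in dorsal cells and 645 CPM in ventral cells (adjusted p = 0.000183), and the hyaluronidase Cemip2 averaged 3.24 CPM in dorsal cells and 12.7 CPM in ventral cells (adjusted p = 0.00348). Receptors gave 1 higher and 3 lower of 12 (median -0.31), Ptprf at 4.27 CPM in dorsal cells and 36.9 CPM in ventral cells (adjusted p = 5.12e-06) and Plxna4 at 753 CPM in dorsal cells and 504 CPM in ventral cells (adjusted p = 0.00086). Of the 7 other genes, Nptx2 was the 1 higher at 40.3 CPM in dorsal cells and 10.5 CPM in ventral cells (adjusted p = 9.49e-05) and Sdc3 the 1 lower at 34.8 CPM in dorsal cells and 72.4 CPM in ventral cells (adjusted p = 0.00512), with a median of 0.057.

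Between regions, CA3 over CA1 called no gene of chondroitin sulfate synthesis and sulfation higher and 3 of 19 lower (median -0.39 against 0.0022 over all genes). Chsy3, a chondroitin synthase, averaged 0.163 CPM in CA3 and 2.49 CPM in CA1 (adjusted p = 0.000208). Chst15 averaged 30.5 CPM in CA3 and 59.4 CPM in CA1 (adjusted p = 0.00114). Proteases and related genes gave 4 higher and 1 lower of 16 (median 0.77). Adamts9 averaged 30.5 CPM in CA3 and 0.972 CPM in CA1 (adjusted p = 4.01e-06). Timp2 averaged 419 CPM in CA3 and 333 CPM in CA1 (adjusted p = 4.95e-05). That CA1 mean joins the low dorsal and high ventral Timp2 levels given above, and the ventral CA1 mean lay above the CA3 mean. Receptors gave 2 each way of 13 (median 0.12), Nrp1 at 286 CPM in CA3 and 102 CPM in CA1 (adjusted p = 1.17e-08) and Itga8 at 9.44 CPM in CA3 and 34.8 CPM in CA1 (adjusted p = 8.81e-07). Other proteoglycans and net-associated genes gave 1 higher and 3 lower of 7 (median 0.36), Nptx1 at 989 CPM in CA3 and 351 CPM in CA1 (adjusted p = 2.95e-09) and Ptprz1 at 11.5 CPM in CA3 and 28.3 CPM in CA1 (adjusted p = 0.00046). Of link proteins and hyaluronan synthases 3 were tested, Has3 with log2 -1.07 (adjusted p = 0.237), Has1 with -1.04 (0.606) and Hapln3 with 1.09 (0.563). Means here are taken over dorsal and ventral libraries, while the fit averages the 2 on the log scale. Over all genes tested, CA3 over CA1 called 13.5%, 8.15% higher and 5.34% lower.

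DG over CA1 called 2 higher and 3 lower of 19 genes of chondroitin sulfate synthesis and sulfation (median 0.18 against 0.023 over all genes). Xylt1, which starts the sugar chain, averaged 1.85 CPM in DG and 25.2 CPM in CA1 (adjusted p = 2.32e-05). Chst11 averaged 47.4 CPM in DG and 114 CPM in CA1 (adjusted p = 0.000284). Of 16 proteases and related genes 4 were higher and none lower (median 0.29), Adamts1 at 69.2 CPM in DG and 7.18 CPM in CA1 (adjusted p = 4.52e-07) and Cemip, which breaks down hyaluronan, at 64.8 CPM in DG and 11.1 CPM in CA1 (adjusted p = 4.94e-05). Receptors gave 6 higher and 3 lower of 13 (median 0.43), Plxna1 at 20.5 CPM in DG and 189 CPM in CA1 (adjusted p = 2.32e-11) and Plxna4 at 998 CPM in DG and 628 CPM in CA1 (adjusted p = 6.65e-07). Other proteoglycans and net-associated genes gave 4 higher and 1 lower of 7 (median 0.97), Nptx1 at 699 CPM in DG and 351 CPM in CA1 (adjusted p = 4.23e-08) and Ptprz1 at 84.3 CPM in DG and 28.3 CPM in CA1 (adjusted p = 0.000705). Has3 was the 1 called of 3 tested in its list, at 3.58 CPM in DG and 12.04 CPM in CA1 (log2 -2.48, adjusted p = 0.00364). Over all genes tested, DG over CA1 called 33.1%, 15.7% higher and 17.4% lower.

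The genes whose levels ran most like each member were found by Pearson's r over the 16 population means of log2(CPM + 1), among 10204 genes with at least 10 CPM in some population. For Hapln1 they were Lhx6 (r = 0.965), a transcription factor of interneurons from the medial ganglionic eminence, Nxph1 (0.947) and Nacc2 (0.942), each highest in PV interneurons. For Ncan they were Ppp3ca (0.976), a calcineurin subunit, Kalrn (0.967) and Arhgap39 (0.961). For Acan they were Ttc17 (0.954), Slc4a4 (0.932), a bicarbonate transporter, and Ntf3 (0.924), the neurotrophin-3 gene, each highest in dorsal DG. For Bcan they were Tspan5 (0.926), Rell1 (0.921) and Ncoa3 (0.889), and for Hapln4 Scrn3 (0.903), Osbpl1a (0.894) and the cytokine gene Il34 (0.885). The nearest genes to Tnr were Xpnpep1 (0.861), Kctd6 (0.859) and Ntrk3 (0.847), to Vcan Plppr5 (0.822), Kdm4c (0.815) and Lpcat2 (0.793), and to Tnc Tacr1 (0.877), Fbxw17 (0.85) and Cpne3 (0.811). Tnc had no read in 38 of 48 libraries and passed 1 CPM in 3, in 3 different populations, so its r values rest mainly on single libraries. Of these 24 pairings, 18 were also found with log2(CPM + 5) and 22 with DESeq2's size factors. Populations share dissection and sorting, and no test was made of these values.

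Among the 8 genes themselves the highest r over the 16 populations was 0.645, for Bcan and Vcan, and the lowest was -0.591, for Hapln1 and Tnr. In the reference annotation each lectican has a link protein gene as its neighbour with no protein-coding gene between them. Vcan and Hapln1 had r = 0.311, Bcan and Hapln2 0.189, Acan and Hapln3 -0.286, and Ncan and Hapln4 -0.308. Hapln2 and Hapln3 averaged at most 0.501 and 2.05 CPM in any population. In that annotation 6 of the 8 genes overlap a noncoding gene or pseudogene, all but Bcan and Hapln4, and no source used here states whether counting used strand, so reads shared with such partners cannot be told apart.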

How the data were processed

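RNA of sorted neurons was amplified and sequenced from 48 libraries, 3 for each of 16 populations, with ERCC control RNA added, per the labels' protocols. The submitters' processing notes name TopHat2 2.0.6, HTSeq, DESeq2, Cuffdiff 2.1.1 and the builds NCBIM37 and mm9. The authors deposited raw read counts per gene and a table of FPKM from Cuffdiff, and no source used here states the strand setting. Symbols matched 32897 of 37620 gene identifiers. The 92 control lines and 5 summary lines stayed out of library sizes, and reads assigned to no gene made up 20.4% to 46.7% of the reads assigned to genes, controls, no gene or several genes. Among FPKM values 552 were marked as failed, none of them of the 8 genes.

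Counts were tested with edgeR 4.0.16 (quasi-likelihood, robust, TMM scaling, its default filter on low counts, Benjamini-Hochberg adjustment over all genes tested) with R 4.3.3, in 1 fit per comparison family: 9 libraries for the long axis, 6 each for the transverse and radial axes and the postsubiculum, 9 for projections, 18 for regions, 9 for interneurons with dorsal CA1, and 48 for the test across populations. DESeq2 1.42.0 was an alternative, and the others are DESeq2's size factors, no filter, a fit to all 48 libraries, the number of the library as a block, and leaving out each library. The scripts were tested on simulated data. CPM use TMM factors over 48 libraries. A fold against a group at 0 is a bound from a floor of 3 reads per library. With 1 to 3 reads a 95% exact binomial interval is given, which covers counting error only since amplified reads are not independent molecules.

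Columns of the count table are numbered 1 to 3 and sample titles 0 to 2, so each column was assigned to its population only, and library numbers are those of the count table. The FPKM table carries the numbers of the titles, and its rows were assigned to samples. No 2 columns were duplicates. The 8 genes, the gene lists and the comparisons were chosen with earlier results of these data known. Named genes are the 8, the 3 with the highest correlation to each, and up to 2 called genes per list with the smallest p in 5 comparisons. Has1, Has3 and Hapln3 are also named where they were not called, chosen after their values were seen. Levels are compared between genes only in FPKM. Sums of marker genes are given where they stand beside a result, and some are not reported here.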

Additional observations from a re-analysis of the deposited data

How the results depend on the processing

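Of 106 results on single genes in comparisons of 2 groups or of long axes, 28 were called. Of these, 28 remained called with DESeq2, 27 with DESeq2's size factors, 26 without the filter on low counts and 23 in the fit to all 48 libraries. Calls lost were Ncan in intermediate over ventral CA1 with DESeq2's size factors and in the fit to all libraries, Ncan in dorsal over intermediate CA1 in the fit to all libraries, Ncan in DG over CA3 without the filter and in the fit to all libraries, Hapln4 in dorsal over ventral DG without the filter, and, in the fit to all libraries, Acan in PV over SST interneurons (adjusted p = 0.0629) and Bcan in SST interneurons over dorsal CA1 (adjusted p = 0.0904). The cause was not tested. The 1 result that reversed was Bcan in dorsal over ventral DG, at -0.97 without dorsal DG library 3 and up to 6.29 without any other library (dorsal DG library 1).

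How many of the 8 genes were called moved by over 1.5 times in these cases. Without the filter the count was 2 in dorsal over intermediate CA1, 2 in postsubiculum-projecting over dorsal CA1 and 1 in dorsal over ventral DG. In the fit to all libraries it was 0 in dorsal over intermediate CA1, 1 in intermediate over ventral CA1, and 1 each in amygdala- and accumbens-projecting over ventral CA1. DESeq2's size factors gave 1 in intermediate over ventral CA1. DESeq2's test gave 1 in amygdala-projecting over ventral CA1, 3 in postsubiculum-projecting over dorsal CA1 and 1 in the CA1 long axis minus that of the DG. Smaller moves with DESeq2's test were 3 in dorsal over ventral DG (Ncan gained), 4 in DG over CA3 (Vcan gained) and 4 in PV over SST interneurons (Bcan gained). In the fit to all libraries they were 2 in DG over CA3, 2 in PV over SST interneurons and 4 in SST interneurons over dorsal CA1, and without the filter 2 in DG over CA3 and 8 across all populations.

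No pairing of samples by replicate number was seen on average. Deviations from the population mean had a mean correlation of 0.000505 at the same number and -0.000223 at other numbers. Of 120 pairs of populations, 0 had every correlation over 0.1. These checks cannot exclude weaker pairing, or pairing of some libraries in a few populations. With the number as a block, 26 of the 28 calls remained, without Ncan in intermediate over ventral CA1 (adjusted p = 0.0627) and in DG over CA3 (adjusted p = 0.055). The block gave 2 calls in dorsal over intermediate CA1, 2 in DG over CA3, 1 in intermediate over ventral CA1 and 1 in postsubiculum-projecting over dorsal CA1.

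Leaving out each library in turn, which leaves 2 in its group, the count ran from 2 to 2 in dorsal over ventral CA1, 0 to 2 in dorsal over intermediate CA1, 1 to 2 in intermediate over ventral CA1, 1 to 1 in proximal over distal CA1, 0 to 1 in superficial over deep CA1, 0 to 1 in amygdala-projecting over ventral CA1, 0 to 0 in accumbens-projecting over ventral CA1 and in amygdala- over accumbens-projecting CA1, and 0 to 1 in postsubiculum-projecting over dorsal CA1. It ran from 1 to 2 in dorsal over ventral CA3, 1 to 4 in dorsal over ventral DG, 2 to 2 in CA3 over CA1, 2 to 3 in DG over CA1, 2 to 4 in DG over CA3, 0 to 1 and 0 to 2 in the long axis of CA1 minus that of CA3 and of the DG, 2 to 4 in PV over SST interneurons, 4 to 5 in PV interneurons over dorsal CA1 and 4 to 6 in SST interneurons over dorsal CA1. Calls gained in this way and not given above were, without dorsal DG library 2, Tnr in dorsal over ventral DG (0.62), in DG over CA3 (0.43) and in CA1 minus DG (-0.87) and Hapln4 in CA1 minus DG (3.52; 2.08 without ventral DG library 1). Vcan was gained in dorsal over ventral DG without ventral DG library 3 (2.74) and in DG over CA3 without ventral DG library 2 (1.53), and Bcan in CA1 minus CA3 without dorsal DG library 1 (5.24). Leaving out libraries was not run for the test across all populations.

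Counts over all genes moved by over 1.5 times in these cases. The fit to all libraries called 665 genes in dorsal over ventral CA1 (1837 in the family's own fit), 101 in dorsal over intermediate CA1 (599), 80 in intermediate over ventral CA1 (611), 65 in superficial over deep CA1 (311), 926 and 915 in amygdala- and accumbens-projecting over ventral CA1 (309 and 265), 354 between these (3), 765 in postsubiculum-projecting over dorsal CA1 (1370), 438 in CA3 (773) and 1883 in the DG (3010) along the long axis, and 296 and 792 for CA1 minus CA3 and minus the DG (547 and 1510). DESeq2's test called 591 in proximal over distal CA1 (135), 736, 748, 694 and 199 in the superficial, amygdala, accumbens and amygdala over accumbens comparisons, 2363 for the postsubiculum, 855 and 2394 for the long-axis differences and 1677 in PV over SST interneurons (903). Without the filter the proximal, superficial, amygdala, accumbens and amygdala over accumbens comparisons called 301, 511, 662, 543 and 180 genes, and the last called 1 with the block. Without 1 library the counts ran from 315 to 681 in dorsal over intermediate CA1, 399 to 573 in intermediate over ventral CA1, 16 to 94 in proximal over distal CA1, 85 to 280 in superficial over deep CA1, 100 to 476, 64 to 286 and 0 to 11 in the amygdala, accumbens and amygdala over accumbens comparisons, 498 to 1329 for the postsubiculum, 436 to 1002 in CA3 and 2002 to 3419 in the DG along the long axis, and 546 to 1141 in PV over SST interneurons. Depth limits Acan, Bcan, Vcan and Tnc, which had 2733, 12994, 6982 and 209 reads over all libraries, against 334402 for Ncan.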
